A study of Mus musculus with 6 samples.

Results

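The platelet-derived growth factor (PDGF) family was followed in mouse skin fibroblasts (MSFs) by the 7 genes of the table whose symbol is Pdgfa, Pdgfb, Pdgfc, Pdgfd, Pdgfra, Pdgfrb or Pdgfrl, of 22162 genes in all. Each symbol had 1 entry, so 4 ligands, 2 receptors and 1 receptor-like gene were available. The poly(A) RNA of 6 samples was measured. Of these, 3 had received tamoxifen (TAM, 10 µM for 48 h) and are labelled senescent, and 3 had received the ethanol (EtOH) vehicle alone and are labelled non-senescent. The MSFs are a line made from the dorsal skin of a single female FVB/N mouse and were kept at 3% oxygen. Both groups carried the same alleles. These are a TAM-inducible Cre recombinase (Cre-ERT2) driven by the pro-alpha 2(I) collagen promoter, which acts in mesenchymal cells, and a p27Kip1 transgene with GFP at ROSA26 behind a lox-stop-lox cassette. Only the TAM samples received the agent, so an effect of TAM itself and of p27Kip1 cannot be told apart in this design. The mouse's age, the time of RNA extraction and whether the samples were separate cultures are not given in the sources used here, so the p-values measure the spread between these samples, which may be technical.

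PDGFs are dimeric growth factors that act on mesenchymal cells, and dermal fibroblasts are among their classical targets. PDGF-A and PDGF-B are processed inside the cell, whereas PDGF-C and PDGF-D are secreted with a CUB domain that extracellular proteases must remove before the factor can bind. The receptors, PDGFRα and PDGFRβ, are tyrosine kinases that dimerize on binding and recruit PI3 kinase, phospholipase Cγ, Src family kinases and the Ras–MAP kinase pathway. PDGF-A and PDGF-C act mainly through PDGFRα, PDGF-D mainly through PDGFRβ, and PDGF-B through both. Pdgfrl encodes a secreted protein that resembles the extracellular part of a PDGF receptor and has no kinase domain.

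The proximal promoters of Pdgfa and Pdgfra are shown because Pdgfa was the ligand, and Pdgfra the receptor, with the largest difference between the groups. RefSeq promoters (GRCm38.p6, 250 bases before to 50 bases after a start) were matched for 4 of the 7 genes, with 2 starts for Pdgfa. Each of the 5 windows had a single exact match on its chromosome in the mm9 genome. Capitals mark a GC box (GGGCGG on either strand, the core sequence recognized by Sp1 family factors), and each sequence is read 5′ to 3′ on the strand of the gene.
Pdgfa, first start, chr5:138994232-138994531, minus strand: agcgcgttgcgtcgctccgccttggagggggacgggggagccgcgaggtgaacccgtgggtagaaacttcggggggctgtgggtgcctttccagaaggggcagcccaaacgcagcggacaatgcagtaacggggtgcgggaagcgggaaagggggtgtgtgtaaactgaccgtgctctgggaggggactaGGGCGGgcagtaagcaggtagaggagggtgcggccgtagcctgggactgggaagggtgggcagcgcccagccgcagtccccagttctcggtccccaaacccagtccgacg
Pdgfa, second start, chr5:138994895-138995194, minus strand: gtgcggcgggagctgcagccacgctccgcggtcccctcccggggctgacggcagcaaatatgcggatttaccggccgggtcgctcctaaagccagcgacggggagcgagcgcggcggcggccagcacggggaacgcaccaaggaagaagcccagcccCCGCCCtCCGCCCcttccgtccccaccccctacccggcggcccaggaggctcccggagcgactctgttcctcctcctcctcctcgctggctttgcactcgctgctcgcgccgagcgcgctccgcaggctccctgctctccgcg
Pdgfra, chr5:75152001-75152300, plus strand: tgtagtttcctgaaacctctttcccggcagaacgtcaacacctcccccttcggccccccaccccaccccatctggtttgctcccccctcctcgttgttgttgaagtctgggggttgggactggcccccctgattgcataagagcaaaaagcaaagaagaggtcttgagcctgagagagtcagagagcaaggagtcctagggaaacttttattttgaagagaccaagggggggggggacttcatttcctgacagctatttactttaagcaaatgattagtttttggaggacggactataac
The first Pdgfa window held 1 GC box, beginning 60 bases before the start, and the second held 2 on the opposite strand, beginning 93 and 86 bases before the start. A GC box was present in 35.7% of all 32851 windows, and in neither the Pdgfra nor the Pdgfc and Pdgfd windows. The Pdgfa windows had a GC content of 67.0% and 73.3%, and the Pdgfra window one of 51.0%, beside a median of 52.7% over all windows. The Pdgfc and Pdgfd windows stood at 55.0% and 56.7%. The AP1 site TGACTCA (5.2% of all windows), the early growth response (EGR) site GCGGGGGCG (2.91%) and the CCAAT box CCAAT (37.4%) were searched on both strands and found in none of the 5 windows. TATAAA, the TATA box (13.6% of all windows), was found once, 160 bases before the start of Pdgfd. These are matches of letters and were not tested as binding sites.

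The values are normalized counts per gene, as deposited by the authors. They summed to between 14952367 and 17314953 per library, and the smallest value above 0 was between 0.36 and 0.89 in the 6 libraries, so a difference of a few normalized counts is within a few reads. The row of Cdkn1b, the gene of p27Kip1, ranged from 1427 to 3074 in the EtOH libraries and from 1520 to 1699 in the TAM libraries. It does not check the labels, because it is not stated whether transgene reads were counted there, and all directions below are for the libraries as labelled. Fibroblast markers were abundant, with 12 of 12 at 10 or more normalized counts in every library, and summed to 2074445 to 2194591 in EtOH and 1363189 to 1645759 in TAM. The macrophage list summed to at most 556, with Emr1 and Tyrobp at 0 and 4 of 10 genes at 10 or more in every library. Of these genes Lyz2 and Csf1r were higher in every TAM library than in any EtOH library, and Cd14 and Cd68 overlapped. The keratinocyte list summed to at most 194, with Krt1 at 0 and 1 of 10 genes at 10 or more in every library. Its gene Perp had 0, 0.92 and 0 normalized counts in EtOH and 4.47, 64.5 and 11.4 in TAM, whereas Trp63 was lower in every TAM library. The endothelial list summed to 198 to 539 in EtOH and 259 to 1051 in TAM, most of it Flt1 and Kdr, with Cldn5 at 0. The pericyte and smooth muscle list reached 28682 to 72384 in EtOH and 39273 to 149545 in TAM, most of it Acta2 and Tagln, with Kcnj8 at 0. Replicate 2 stood apart in both groups. EtOH replicate 2 had 1342 normalized counts of Fos, against 22.0 to 241 in the other libraries. TAM replicate 2 had the lowest value of Dcn (6712 against 25738 to 106514) and the highest of Myh11 (1568 against 94.4 to 523), so member differences are given with and without it where it moves them.

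Per kilobase of exon, PDGF receptors were far more abundant than PDGF ligands in these fibroblasts (each level being normalized counts per kilobase, mean ± SD, n = 3). In EtOH the order was Pdgfra (4828 ± 1144), Pdgfrb (1104 ± 202), Pdgfrl (1091 ± 172), Pdgfd (381 ± 111), Pdgfc (56.1 ± 14.99), Pdgfa (27.2 ± 8.76) and Pdgfb (0.331 ± 0.574). Pdgfrb and Pdgfrl overlapped in EtOH, and the ranges of every other pair of neighbours in this order were separate, with Pdgfb at or near 0 in each library. In TAM the order was Pdgfra (2595 ± 1418), Pdgfrb (1163 ± 115), Pdgfrl (906 ± 222), Pdgfd (412 ± 115), Pdgfa (90.5 ± 52.6), Pdgfc (90.5 ± 33.3) and Pdgfb (0.434 ± 0.304). There Pdgfra overlapped Pdgfrb, because its lowest library (1147) lay between the Pdgfrb values of 1091 and 1295, and Pdgfa and Pdgfc could not be ordered. The levels use the exon bases inside the position that the table gives for a gene. With the whole annotated gene Pdgfd fell to 219 in EtOH and 237 in TAM, Pdgfrl to 722 and 600, and Pdgfa to 20.1 and 66.9.

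**Figure D1:**
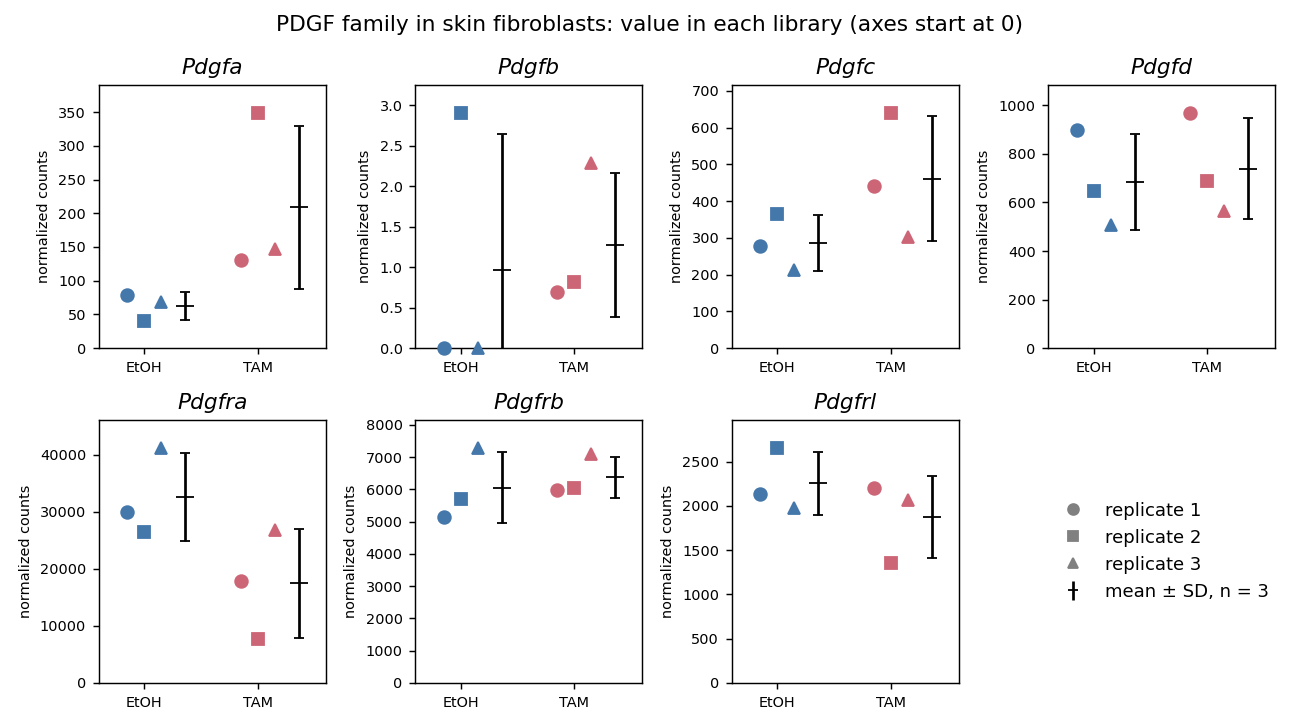
Normalized counts of the 7 genes of the PDGF family in each library (vertical axes, each from 0), by group (horizontal axis), with the mean and SD of 3 libraries beside the points. The 3 TAM libraries lie above the 3 EtOH libraries for Pdgfa alone, and replicate 2 (square) holds the highest Pdgfa and Pdgfc and the lowest Pdgfra and Pdgfrl of the TAM libraries.

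Whether the family differed between TAM and EtOH was tested with limma on log2(normalized counts + 1), fitted over 11877 genes and adjusted by the Benjamini-Hochberg method. Pdgfa was higher in TAM by 1.63 on the log2 scale and Pdgfra lower by 1.05, but none of the 6 members tested passed an adjusted p of 0.05. Across all genes 0.244% were called, and at an unadjusted p under 0.05 there was 1 member, Pdgfa, beside 6.66% of genes higher and 6.69% lower in TAM. The 3 TAM libraries lay all above the 3 EtOH libraries for 1 member, again Pdgfa, beside 9.19% of all genes, and all below them for none, beside 11.4%. A difference in these bulk RNA values does not tell less RNA per cell from fewer cells with the RNA. The fit with the replicate number as a block called 1.62% of all genes and again no member. At an unadjusted p under 0.05 it gave 3 members, Pdgfa (0.0209) and Pdgfc (0.0121) higher and Pdgfra (0.0176) lower in TAM by limma, beside 8.64% of all genes higher and 8.32% lower. The median log2 difference was 0.10 for the members tested and −0.03 for all genes, and 4 of 6 members and 5483 of 11877 genes were positive.

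Pdgfa (ENSMUSG00000025856) encodes PDGF-A, the ligand that binds PDGFRα alone. It lies on the minus strand of mm9 chromosome 5 from 139451968 to 139470991, with 9 exon blocks of 2306 bases. Its normalized counts were 78.9, 40.0 and 69.0 in EtOH replicates 1, 2 and 3 and 131, 349 and 147 in TAM replicates 1, 2 and 3. All TAM libraries were higher, and TAM replicate 2 was more than 2 times either other TAM library. The means were 62.6 ± 20.2 and 209 ± 121 (SD, n = 3), a ratio of 3.33. The log2 difference of 1.63 had a standard error of 0.45, a 95% interval of 0.58 to 2.68 and a limma adjusted p of 0.207. It stood at the 97.7th percentile of all log2 differences. From its own analysis of these RNA-seq data, the study names PDGFα among the mitogens that rose in senescent MSFs, without showing the values. Same-numbered libraries differed by 0.73, 3.09 and 1.08. Without TAM replicate 2 the log2 difference was 1.19 (limma adjusted p = 0.280), and without EtOH replicate 2 it was 1.34 (0.295). When limma weighted each library by its fit, the weights were 0.29 for both replicates 2, 0.93 for TAM replicate 1 and 4.06 for TAM replicate 3. The log2 difference was then 1.09 with a standard error of 0.25 and passed the threshold (limma adjusted p = 0.0496). That fit leaned mostly on replicate 3 within TAM and called 742 of 11877 genes. The gene 6330403L08Rik on the plus strand overlaps 813 exon bases of the whole annotated Pdgfa but 0 within the position in the table.

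Pdgfc, Pdgfd and Pdgfb differed less. Pdgfc (ENSMUSG00000028019; chromosome 3, plus strand, 80840338 to 81017962, 7 exon blocks of 5089 bases) encodes PDGF-C, a ligand of PDGFRα with a CUB domain. It had 278, 365 and 213 normalized counts in the EtOH libraries and 441, 639 and 302 in the TAM libraries. The groups overlapped, yet within each replicate number TAM was higher, by 0.67, 0.81 and 0.50 on the log2 scale. The log2 difference was 0.66 (standard error 0.33, interval −0.11 to 1.43), which limma left uncalled (adjusted p = 0.446). The block lowered the standard error to 0.18 (limma adjusted p = 0.166). Leaving out single libraries moved it between 0.39 and 0.93. Gm16000 on the other strand overlaps 147 of its exon bases, and the strand setting of the counting is not given in the sources used here.

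Pdgfd (ENSMUSG00000032006; chromosome 9, plus strand, 6168612 to 6377519, 7 exon blocks of 1795 bases) encodes PDGF-D, the CUB-domain ligand of PDGFRβ. Its normalized counts were 898, 648 and 506 in EtOH and 968, 687 and 565 in TAM. Replicate 1 was highest and replicate 3 lowest in both groups, and the values of same-numbered libraries differed by 0.16 or less on the log2 scale. The log2 difference of 0.12 had an interval of −0.56 to 0.79 (limma adjusted p = 0.897), and its sign turned when EtOH replicate 3 (−0.08) or TAM replicate 1 (−0.10) was left out. Pdgfb (ENSMUSG00000000489; chromosome 15, minus strand, 79826330 to 79845238, 7 exon blocks of 2918 bases), whose product binds both receptors, had 0, 2.90 and 0 normalized counts in EtOH and 0.69, 0.82 and 2.29 in TAM. These values are about those of 1 or a few reads, so Pdgfb was left out of the fit, which asked for 16.2 normalized counts in at least 3 libraries, and a difference was not detectable at this depth.

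Pdgfra (ENSMUSG00000029231; chromosome 5, plus strand, 75548316 to 75594229, 24 exon blocks of 6737 bases) encodes PDGFRα, the receptor for PDGF-A and PDGF-C. Its normalized counts were 29889, 26485 and 41206 in EtOH and 17909, 7726 and 26819 in TAM. Every TAM library was lower than the EtOH library of its number, with log2 differences of −0.74, −1.78 and −0.62, and the groups overlapped only in that TAM replicate 3 exceeded EtOH replicate 2. The means were 32527 ± 7706 and 17485 ± 9554 (SD, n = 3), a ratio of 0.538. The log2 difference was −1.05 with a standard error of 0.47 and an interval of −2.14 to 0.05 (limma adjusted p = 0.394), at the 3.2nd percentile of all genes. The block lowered the standard error to 0.31 (limma adjusted p = 0.195). Without TAM replicate 2 the difference was −0.54 (adjusted p = 0.495), and without EtOH replicate 2 it was −1.18 (0.416). The fibroblast marker sum was also lower in every TAM library, and 7 of its 12 genes lay below EtOH in all 3, beside 11.4% of all genes. None of the 12 was called, and 3 had positive log2 differences, Thy1 (1.36, with all TAM libraries higher), S100a4 (0.28) and Fn1 (0.24). Of the 7 lower genes Dcn, which encodes the matrix proteoglycan decorin, had 79944, 75763 and 106514 normalized counts in EtOH and 27277, 6712 and 25738 in TAM. The part of that shift in the Pdgfra difference was not tested.

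Pdgfrb (ENSMUSG00000024620; chromosome 18, plus strand, 61204804 to 61244715, 24 exon blocks of 5478 bases) encodes PDGFRβ, the receptor that marks pericytes as well as fibroblasts. It had 5153, 5709 and 7283 normalized counts in EtOH and 5978, 6035 and 7093 in TAM, and the TAM values all lay within the EtOH range. The log2 difference was 0.09 with a standard error of 0.20 and an interval of −0.39 to 0.56 (limma adjusted p = 0.895), and its sign turned without EtOH replicate 1 (−0.02). Pdgfrl (ENSMUSG00000031595; chromosome 8, plus strand, 42011566 to 42025298, 2 exon blocks of 2069 bases, or 6 blocks of 3126 bases in the whole annotated gene) had 2141, 2657 and 1974 normalized counts in EtOH and 2202, 1351 and 2072 in TAM. Only TAM replicate 2 lay outside the EtOH range. The log2 difference was −0.29 with a standard error of 0.24 and an interval of −0.85 to 0.27 (limma adjusted p = 0.650), and it was −0.07 at the smallest when single libraries were left out.

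**Figure D2:**
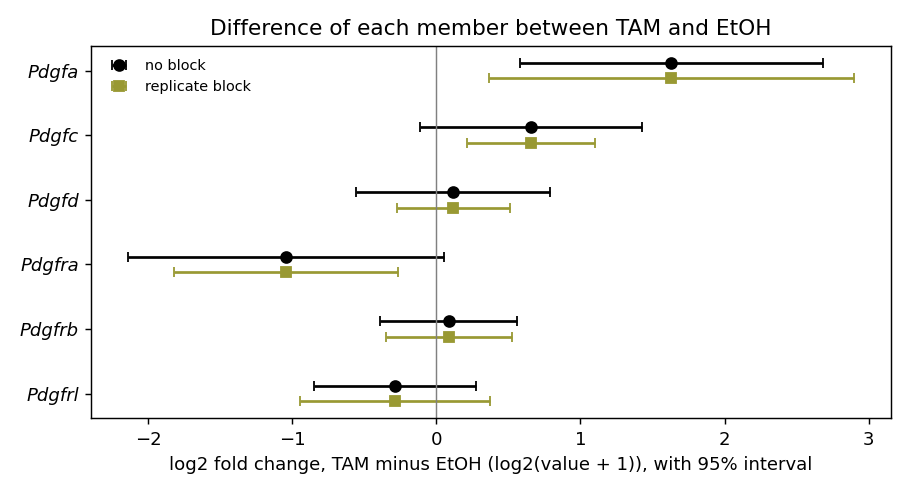
Log2 difference between TAM and EtOH (horizontal axis, log2(normalized counts + 1)) for the 6 members that passed the filter on low values (vertical axis), as estimates with 95% intervals from limma without (circles) and with (squares) the replicate number as a block. Pdgfa (0.58 to 2.68) is the 1 interval that leaves out 0 without the block, before adjustment over all genes. With the block the intervals of Pdgfa, Pdgfc and Pdgfra leave out 0, and no member was called in either fit.

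Ratios between members within a library do not depend on a scaling that multiplies all genes of the library by the same factor. Low values of TAM replicate 1, such as 0.64 for St14, 0.69 for Pdgfb and 0.75 for Higd1b, show no common step. Those of TAM replicate 2, such as 0.82 for Pdgfb, 1.66 for St14 and 2.5 for Abcc9, rise in near-equal steps. A single factor is therefore not established for every library, and a scaling that differs between genes would remain in these ratios. Pdgfd made up most of the summed ligand level per kilobase, with 84.9%, 80.0% and 79.7% in the EtOH libraries and 79.0%, 58.0% and 71.8% in the TAM libraries. These shares use the 1795 exon bases inside the position given for Pdgfd. With the 3119 bases of its whole annotated gene its share is lower, and whether it stays most of the level in TAM replicate 2 is not reported here. All TAM shares of Pdgfd were below the EtOH shares, with a difference of −12.0 percentage points (exact permutation test, two-sided, p = 0.1, the smallest that 3 against 3 can give) that was −6.17 points without TAM replicate 2. A share is relative to the other ligands and does not show less Pdgfd RNA. Pdgfd itself had a log2 difference of 0.12 and was higher in TAM within each replicate number. The share of Pdgfa was 5.81%, 3.85% and 8.46% in EtOH and 8.33%, 22.9% and 14.5% in TAM. It was higher within each replicate number, but TAM replicate 1 fell within the EtOH range. The means were 6.04% ± 2.32 and 15.3% ± 7.32 (SD, n = 3), a difference of 9.21 points (exact permutation p = 0.2, or 0.25 in a sign-flip test of the 3 pairs), which was 5.38 points without TAM replicate 2. For Pdgfc the share was 9.26% to 15.9% in EtOH and 12.7% to 19.0% in TAM, a difference of 2.74 points (exact permutation p = 0.4) or 0.76 without TAM replicate 2, and Pdgfb never exceeded 0.22%. The summed ligand level was 589, 451 and 354 normalized counts per kilobase in EtOH and 683, 660 and 438 in TAM, higher in TAM within each number but with overlapping groups (exact permutation p = 0.3).

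Between the receptors, Pdgfra stood 4.72, 3.77 and 4.60 times above Pdgfrb per kilobase in the EtOH libraries and 2.44, 1.04 and 3.07 times in the TAM libraries. Both receptors were thus at nearly the same level in TAM replicate 2, and every TAM ratio was below every EtOH ratio. On the log2 scale the ratio was 2.12 ± 0.18 in EtOH and 0.99 ± 0.82 in TAM (SD, n = 3), a difference of −1.13 (exact permutation p = 0.1, the smallest possible). It was −0.67 without TAM replicate 2. The ratio of a gene to Pdgfrb was lower in all 3 TAM libraries for 11.9% of the other genes tested. Together the receptors reached 5377, 4974 and 7446 normalized counts per kilobase in EtOH and 3750, 2248 and 5276 in TAM, with overlapping groups and a difference of −2174 (exact permutation p = 0.2), or −1420 without TAM replicate 2. Pdgfra made up 82.5%, 79.0% and 82.1% of that level in EtOH and 70.9%, 51.0% and 75.5% in TAM (exact permutation p = 0.1). That difference was −15.4 points, and −8.06 points without TAM replicate 2. This share is fixed by the ratio of the receptors, so its test is not a second result.

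**Figure D3:**
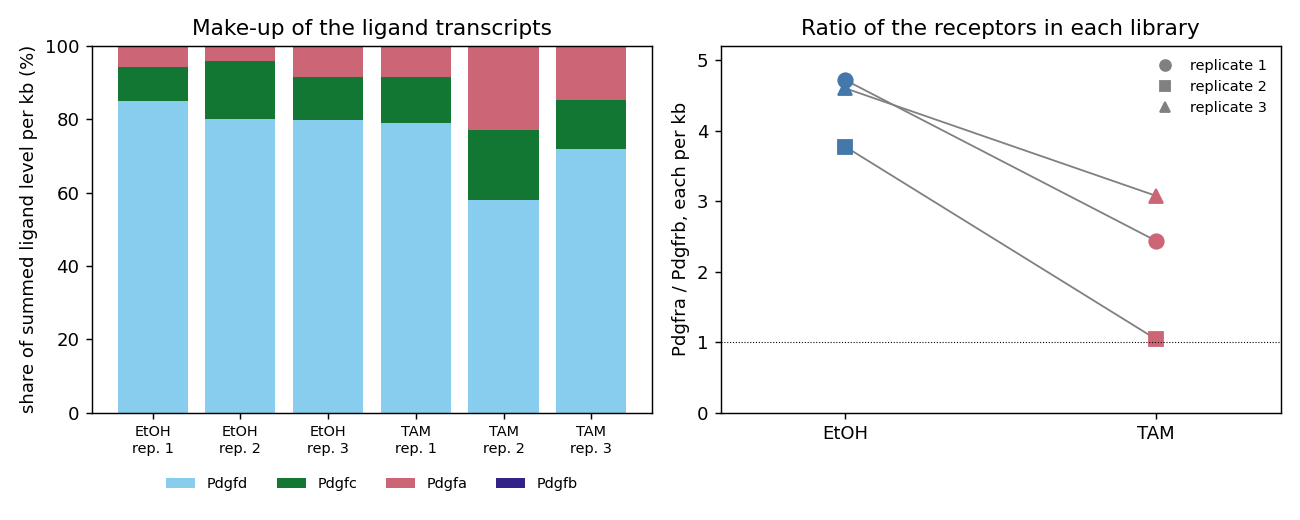
Left, share of each ligand in the summed ligand level per kilobase of exon (vertical axis, %) in each of the 6 libraries, with Pdgfd the largest share throughout and Pdgfa at 22.9% in TAM replicate 2. Right, ratio of Pdgfra to Pdgfrb per kilobase (vertical axis, from 0) by group, with lines joining libraries of the same replicate number and a dotted line at equal levels. All 3 lines fall, to between 1.04 and 3.07 in TAM.

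The other genes were taken from 6 lists of PDGF signalling and related growth factors, with 83 genes in all, of which 77 were tested. Without the block 1 of the 77 was called, lower in TAM, beside 0.244% of all genes. This was Ngfr, which is not known as a binder of PDGF. Under the block 5 were called higher and 2 lower (Ngfr and the VEGF receptor gene Kdr), beside 1.62% of all genes in either direction. In 12 genes all TAM libraries were higher (9.19% of all genes) and in 9 all were lower (11.4%). The median log2 difference was 0.06, against −0.03 for all genes.

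Of the proteases that process the ligands, 6 of 7 were tested and none was called without the block. With a median log2 difference of 0.57 (5 of 6 positive), these were Furin and its relatives Pcsk5, Pcsk6 and Pcsk7, which cleave precursors such as pro-PDGF-A, and the plasminogen activators Plat and Plau. Plat encodes tPA, which activates PDGF-C, and had 4641, 3275 and 3946 normalized counts in EtOH and 7855, 4121 and 7842 in TAM (log2 difference 0.69, limma adjusted p = 0.379). Plau encodes uPA, which can activate PDGF-D, and had a log2 difference of 0.61 with a standard error of 1.14. Pcsk5 had 104, 43.8 and 19.3 in EtOH and 1753, 346 and 107 in TAM, a log2 difference of 3.14 (limma adjusted p of 0.268, or 0.0345 under the block). Its TAM replicate 3 was barely above EtOH replicate 1, although TAM was higher in all 3 pairs.

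Among 7 genes listed as ligand-binding proteins and co-receptors, 1 was called lower without the block, and with it 1 was higher and 1 lower. The called gene, Ngfr, encodes the p75 neurotrophin receptor, which is not known as a binder of PDGF. It fell from 2901, 1078 and 3545 normalized counts in EtOH to 27.2, 9.20 and 52.9 in TAM, a log2 difference of −6.48 (standard error 0.68, adjusted p = 0.0365 in limma). The number called over the 6 lists was 0 when any library other than TAM replicate 3 was left out. Neuropilins, co-receptors for VEGFs that have also been linked to PDGF signalling, had higher values in every TAM library than in any EtOH library. Nrp2 had 1082, 1181 and 729 normalized counts in EtOH and 5587, 3268 and 1880 in TAM, a log2 difference of 1.73 (limma adjusted p of 0.157, or 0.0481 under the block). Nrp1 had a log2 difference of 1.11 (limma adjusted p of 0.176, or 0.110 under the block). Hspg2, which encodes the heparan sulphate proteoglycan perlecan, had a log2 difference of −1.03 (adjusted p = 0.183). Lrp1, a co-receptor of PDGFRβ, stood at −0.01 and Sparc, which binds PDGF-B, at −0.35.

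The adaptors and effectors of the receptors moved least. Of 26 tested, none was called in either fit, 13 were positive and the median log2 difference was −0.00. The largest were Mapk3, which encodes ERK1 (−0.86), the phosphatase gene Ptpn11, which encodes SHP2 (0.60), and Pik3r2, a regulatory subunit of PI3 kinase (−0.57), with limma adjusted p of 0.268, 0.378 and 0.295. Among 15 negative regulators none was called without the block, and the median was 0.19. Slc9a3r1, which encodes the scaffold NHERF1 that binds PDGFRβ, had 113, 154 and 101 normalized counts in EtOH and 423, 385 and 256 in TAM, a log2 difference of 1.52 (limma adjusted p of 0.103, or 0.0481 under the block). The Ras pathway inhibitors Spry4 and Spry2 differed in opposite directions, by 1.01 and −0.80 (adjusted p = 0.561 and 0.233). The intracellular tyrosine phosphatase gene Ptpn1 stood at 0.67, with all TAM libraries higher.

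Of 15 immediate early genes that PDGF is known to induce, none was called without the block, and the median log2 difference was 0.09. With the block 2 were called higher. They encode the chemokines first found as PDGF-induced transcripts, Ccl2 (JE) at 4.46 and Cxcl1 (KC) at 3.82, with limma adjusted p of 0.113 and 0.240 without the block and 0.00438 and 0.0420 with it. The study's own edgeR test called both higher in senescent MSFs, where it describes them as inflammatory mediators. It reports that qRT-PCR also showed the increases. The transcription factors of the list had overlapping groups throughout. Egr1 had 1197, 4737 and 519 normalized counts in EtOH and 1024, 1676 and 726 in TAM, and Fosl1 had a log2 difference of 1.02 with a standard error of 1.36. Among the related factors and receptors, 8 of 11 were tested. The receptors Kit and Flt3, of the same kinase class as the PDGF receptors, were at or near 0. Csf1r, also of this class, had 75.7, 73.4 and 74.3 normalized counts in EtOH and 113, 226 and 90.6 in TAM. All its TAM libraries were higher, with a log2 difference of 0.82 (limma adjusted p = 0.388). Kdr, which encodes VEGF receptor 2, had 205, 68.7 and 116 normalized counts in EtOH and 4.84, 7.53 and 14 in TAM, a log2 difference of −3.71 (limma adjusted p of 0.0608, or 0.0488 under the block). The log2 differences of Flt4 and Flt1, the other VEGF receptors, were 2.73 and 2.15 with standard errors of 1.404 and 1.26.

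**Figure D4:**
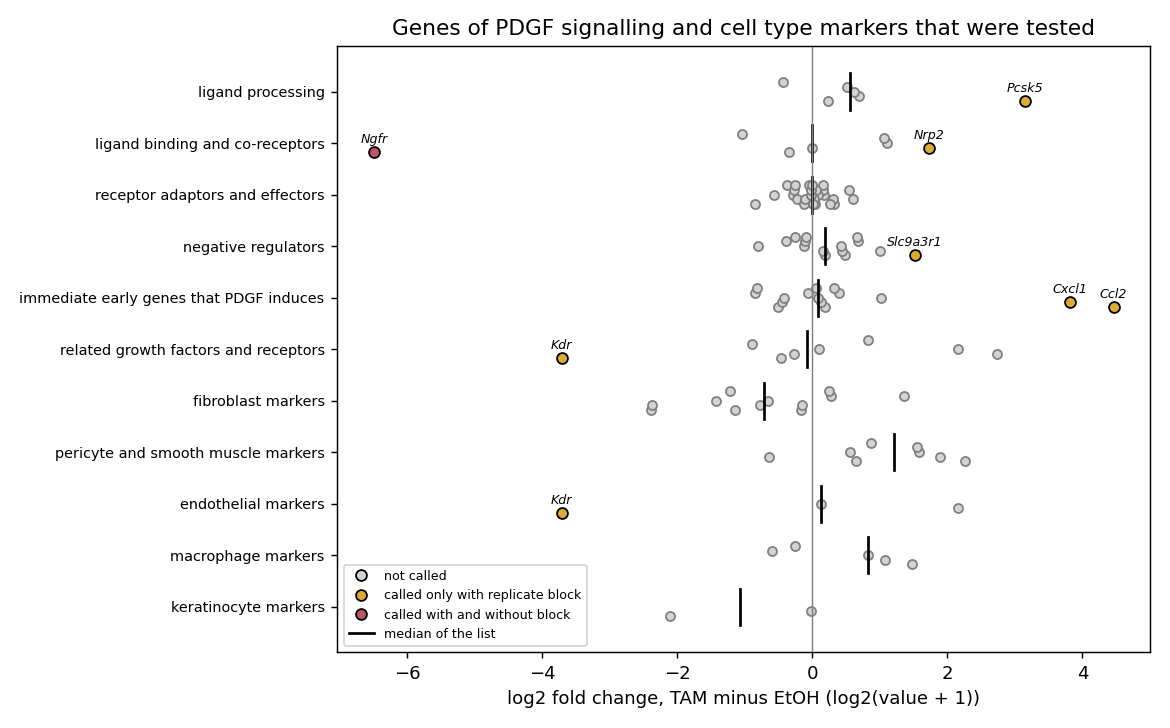
Log2 difference between TAM and EtOH (horizontal axis, log2(normalized counts + 1)) of each tested gene in the 6 lists of PDGF signalling and related genes and the 5 lists of cell type markers (vertical axis), with a bar at each list's median. Ngfr, at −6.48, is the 1 gene called without the block, and Pcsk5, Nrp2, Slc9a3r1, Ccl2, Cxcl1 and Kdr were called only with it.

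PDGFRβ is also a marker of mural cells, and the pericyte and smooth muscle list had a median log2 difference of 1.21 over the 8 of 12 genes tested, none of them called. Kcnj8, Abcc9, Des and Higd1b were too low to be tested, at no more than 12 normalized counts in any library. Myh11, smooth muscle myosin, had 227, 94.4 and 163 normalized counts in EtOH and 523, 1568 and 479 in TAM, so that its highest library was that of Pdgfa. The gene Cnn1, which encodes calponin, stood at 1.89, Mcam at 1.58 and Rgs5 at 1.55. Rgs5 was low and its groups overlapped, with 13.07, 6.62 and 28.35 normalized counts in EtOH and 44.28, 60.31 and 27.35 in TAM. The differences of Notch3 (0.87), Tagln (0.65) and Acta2 (0.56) were smaller, and that of Cspg4, which encodes the pericyte proteoglycan NG2, was −0.64. The part of this list in the Pdgfa and Pdgfra differences was not tested. Its sum was highest in TAM replicate 2, at 149545, of which Acta2 gave 99588 and Tagln 40565. Without that library the remaining TAM sums, 39273 and 47597, lay within the EtOH range.

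For each member tested, the 3 genes with the highest Pearson r of log2(normalized counts + 1) over the 6 libraries were taken as most alike. These r are descriptions over 2 groups of 3. For Pdgfa they were Myh11 (0.994), Sac3d1 (0.994) and Dmd (0.992), and for Pdgfra Pltp (0.997), Ahdc1 (0.997) and Zfp935 (0.995). Among the genes most like Pdgfc were Inppl1 (0.997) and E2f3 (0.985), and those for Pdgfd were Slc38a6 (0.985), Rbms1 (0.969) and Igfbp3 (0.965). The nearest genes to Pdgfrb were Klhl10 (0.982), Gripap1 (0.980) and Masp2 (0.973). Those nearest to Pdgfrl were Vps37d (0.992), Ypel3 (0.991) and Atxn7l1 (0.988).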

How the data were processed

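The authors aligned the reads with TopHat to the mm9 genome, counted them on genes (htseq-count) and tested them in edgeR after TMM scaling (versions are not given in the sources used here). The signal deposited by the authors is 1 table of normalized counts whose values are not whole and whose scaling is not stated, so edgeR was not run. Depth in reads is therefore unknown, and precision is that of 3 libraries against 3.

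Genes reaching 16.2 normalized counts (1 c.p.m. of the mean library sum) in at least 3 of 6 libraries were fitted with limma 3.58.1 in R 4.3.3 on log2(value + 1) with an intensity trend, which understates changes of low genes. Adjusted p under 0.05 was called. The fit was tested on simulated data. Exact permutation tests were two-sided and took the libraries as unpaired. Sign-flip tests flipped the signs of the 3 differences between same-numbered libraries. Other steps used Python 3.11.15 with pandas 2.3.3, and figures matplotlib 3.10.9. Exon lengths came from GENCODE M1 (mm9).

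Groups and replicate numbers came from the labels. After group means were subtracted, libraries sharing a number correlated across genes at 0.241, 0.287 and 0.422, against −0.31 to 0.04 for other numbers. The subtraction ties these values to one another, so they do not establish that the libraries are paired. Pairing by number is therefore an assumption of the block.

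The members, lists and tests were chosen with earlier results of these data known. Named genes were all members, the genes of each signalling list called in either fit with the 3 largest log2 differences, and the 3 genes most like each member, of which 1 is not reported here. Values of further marker and list genes were added after they were seen. Hras was not analysed here. Alternatives were other scalings, filters, pseudocounts and lengths, library weights, the block and leaving out each library. Lengths of whole annotated genes, and shares and summed levels without TAM replicate 2 (other than the Pdgfa share), were added after seeing the data.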

Additional observations from a re-analysis of the deposited data

How the results depend on the processing

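The log2 differences of Pdgfa, Pdgfc, Pdgfra and Pdgfrl kept their direction under every alternative run. Pdgfa ranged from 1.19 to 1.89 when single libraries were left out, Pdgfc from 0.39 to 0.93, Pdgfra from −1.44 to −0.54 and Pdgfrl from −0.42 to −0.07. Pdgfd, from −0.095 to 0.334 over the same 6 fits, reversed with library weights (−0.085), without EtOH replicate 3 (−0.080) and without TAM replicate 1 (−0.095). Pdgfrb, from −0.023 to 0.227, reversed without EtOH replicate 1 (−0.023). No member was called except with library weights, where 1 was, Pdgfa at 1.09 (limma adjusted p = 0.0496). Within TAM those weights leaned mostly on replicate 3, at 4.06. The other alternatives gave Pdgfa adjusted p between 0.162 and 0.477. Over the 6 lists of signalling and related genes 1 gene, Ngfr, was called in the fit reported. The number was 2 with quantile normalization and 0 with at least 10 in every library. It was 7 with the replicate block, including Ngfr and the VEGF receptor gene Kdr, 10 with library weights and 0 to 1 when single libraries were left out. The block, which pairs same-numbered libraries, changed no call among the members. The cause of these moves was not tested. Scaling to equal sums moved the median of all genes from −0.03 to 0.08, and relative to it no member changed direction. Over all genes 29 were called as reported, 192 with the block, 742 with library weights, 17 without a filter, 18 with at least 10 in every library and 0 to 15 with 1 library left out. The Pdgfa share difference was 5.38 to 12.7 points and the receptor log2 ratio difference −1.45 to −0.67 with 1 library left out. Their exact permutation tests could not go below 0.1, and their sign-flip tests of 3 pairs not below 0.25. Values near 1 read, such as those of Pdgfb, limit what this depth can show.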
